A study of Mus musculus with 4 samples.

Results

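The genes described here encode the subunits of the mitochondrial respiratory chain and of the ATP synthase, with some of their assembly factors. They were chosen by symbol prefix in the platform annotation (Nduf, Sdha to Sdhd, Uqcr, Cox4 to Cox8 and Atp5), among probe sets that map to a single gene, with each gene represented by its probe set of highest mean over the 4 arrays. The rule gave 87 genes of the 12393 genes measured, of which 39 belong to complex I, 7 to complex II, 8 to complex III, 16 to complex IV and 17 to complex V. The prefixes also brought in 5 assembly factors of complex I, 3 of complex II and the supercomplex factor Cox7a2l, which leaves 78 structural subunits. Ndufa4 is kept under complex I by its symbol, although its protein is now assigned to complex IV.

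CD8 T cells were sorted from spleens of female C57BL/6 mice aged 8 to 12 weeks, 24 h after an intraperitoneal injection. The treated group received TCDD at 10 µg/kg and the control group received DMSO, with 2 arrays in each group. TCDD is a dioxin that activates the aryl hydrocarbon receptor, and DMSO is its solvent. Suspensions from the 4 mice of a group were pooled, and no label states if each array had a pool of its own. The p-values therefore reflect only how far these arrays differ, and that spread may be technical.

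The respiratory chain passes electrons from NADH through complex I, or from succinate through complex II, to ubiquinone, complex III, cytochrome c and complex IV, where oxygen is reduced. Complexes I, III and IV pump protons across the inner mitochondrial membrane, and the ATP synthase, complex V, uses the gradient to make ATP. Resting T cells draw much of their ATP from this pathway, and activated effector cells add strong glycolysis. All subunits of complex II and most subunits of the other complexes are encoded in the nucleus, and these nuclear genes are the ones measured here.

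Values are log2 expression values from RMA, a method that puts arrays on a common scale and combines the probes of each probe set. They have no true zero. Since probes differ in their response, probe set levels are not compared, apart from a coarse cut at the median of all probe sets. The markers of the sort were present, with 6 of 7 listed CD8 T cell markers measured and all 6 above 6.01, the median of all probe sets. Their mean was 9.09 in TCDD replicate 1, 9.50 in TCDD replicate 2, 9.58 in DMSO replicate 1 and 9.76 in DMSO replicate 2. DMSO replicate 2 stood apart for 4 neutrophil markers, with a mean of 7.47 against 5.63 to 6.10 elsewhere, and for the plasma cell marker, at 8.04 against 5.48 to 6.60. The part of these markers in the results was not tested. In bulk RNA, fewer cells of a type and less RNA per cell cannot be told apart.

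Of the 87 genes, 82 had a mean above the median level, as did 7390 of all 12393 genes. The exceptions among the members were Cox6b2, Cox7a1, Ndufaf1, Ndufaf5 and Ndufb1. Each gene stands by its probe set of highest mean, and the cut does not show that a gene is well expressed. The median difference of TCDD minus DMSO was 0.01 over the members and 0.01 over all genes. By complex it was 0.01 for complex I, −0.07 for complex II, 0.045 for complex III, 0.04 for complex IV and −0.005 for complex V, and the members ran from −0.65 to 0.485. These medians turned with the arrays used, since with 1 array left out that over the members ran from −0.09 to 0.16, and that of each complex took both signs. Limma called 0 members and 0 of 22626 probe sets (0%) at an adjusted p under 0.05. Its unadjusted p was under 0.05 for 7 members (8.05%), against 2.11% of all genes and 3.07% of genes above the median level.

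For 13 members (14.9%) both TCDD values exceeded both DMSO values, and for 9 (10.3%) both were smaller, against 12.9% and 12% of all genes, and the groups overlapped for 65. Complex IV had 3 genes above and 0 below, complex II had 1 above and 3 below, complex I had 6 and 4, complex III had 1 and 1, and complex V had 2 and 1. These shares of members without overlap were close to those over all genes. The 7 members with an unadjusted p under 0.05 were Ndufv2, Ndufb11 and Atp5pb on the higher side and Ndufs1, Ndufa6, Ndufab1 and Uqcrfs1 on the lower side. Each had an adjusted p of 0.9973 in limma.

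**Figure D1:**
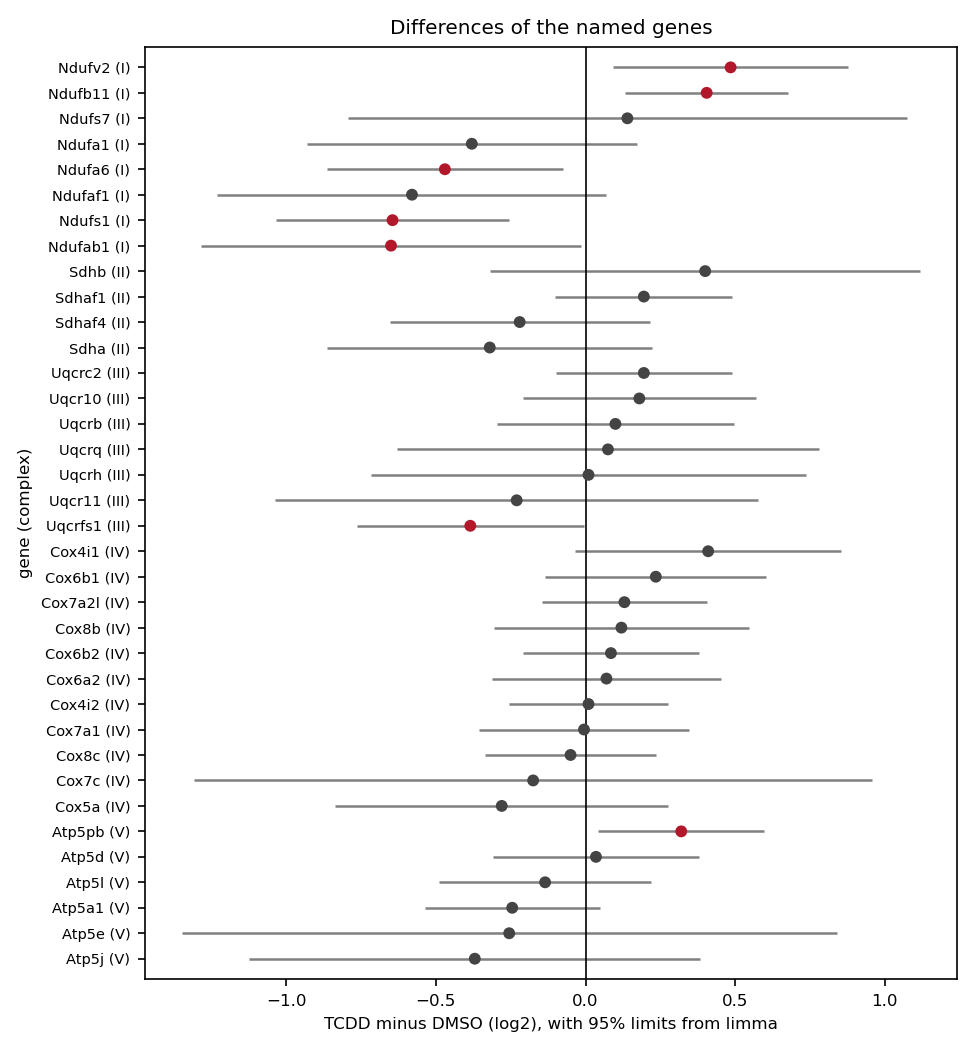
Difference of TCDD minus DMSO on the log2 scale for the named genes (points), with 95% limits from limma (lines), ordered by complex. Red points mark the 7 genes with an unadjusted p under 0.05, of which 3 lie above 0 and 4 below, and for the others the limits include 0.

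Within complex I, genes of the same electron path stood on opposite sides. Ndufs1, the large iron-sulfur subunit of the NADH-oxidising module, measured 7.12 and 6.94 in the TCDD arrays and 7.53 and 7.82 in the DMSO arrays. Both treated arrays were below both controls, with −0.41 and −0.88 between arrays of the same number. The difference was −0.645 (95% limits −1.03 and −0.26, limma adjusted p = 0.9973). Ndufv2, an iron-sulfur subunit of the same module, had 9.47 and 9.63 in the treated and 9.22 and 8.91 in the control arrays. It had the opposite order, again with no overlap, and a difference of 0.485 (limits 0.09 and 0.88, limma adjusted p = 0.9973). Its neighbour in the module, the flavoprotein gene Ndufv1, measured 9.64 and 9.78 against 9.58 and 9.39, also without overlap. That probe set of Ndufv1 is marked for possible cross hybridisation, and its further probe sets differed by 0.27 without overlap and by −0.085 with overlap.

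The remaining core subunits overlapped between the groups on the probe sets used. Ndufs8 differed by 0.345, with a further probe set at 0.505 without overlap and the others at 0.02 to 0.29 with overlap. Ndufs7, whose iron-sulfur cluster hands electrons to ubiquinone, measured 8.67 and 9.72 after TCDD and 8.99 and 9.12 after DMSO, so the TCDD arrays lay on either side of the controls. Its difference was 0.14, with limits of −0.79 and 1.07, and it was 0.665 without TCDD replicate 1 and −0.385 without TCDD replicate 2. Over the 6 core subunits the median difference was 0.1825, with 4 above 0 and 2 below, and over the 28 accessory subunits it was 0.02, with 17 above and 11 below. Both medians turned with the arrays. For arrays numbered 1 they were −0.195 in the core and −0.12 in the accessory subunits, and for those numbered 2 they were 0.495 and 0.11.

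Accessory subunits, which surround the catalytic core of complex I, also split. Ndufb11, an X-linked subunit of the membrane arm, measured 11.30 and 11.38 after TCDD and 10.96 and 10.91 after DMSO, with close replicates in both groups. The difference was 0.405 (limits 0.13 and 0.68, limma adjusted p = 0.9973). Ndufb8, another membrane arm subunit, had values of 8.93 and 9.34 against 8.81 and 8.60 (difference 0.43), and Ndufb10 had 8.30 and 8.62 against 8.11 and 8.14 (difference 0.335). Ndufb8 and Ndufb10 were singled out after their values were seen. Of all 12 members with the prefixes Ndufb and Ndufc, which lie in the membrane arm, 8 differences were above 0 and 4 below, with a median of 0.0375, and these 3 genes were the ones without overlap. Ndufb3 was at the other end, at −0.29.

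On the other side, Ndufa6, an accessory subunit of the matrix arm, measured 8.34 and 8.33 after TCDD and 8.63 and 8.98 after DMSO (difference −0.47, limits −0.86 and −0.08). Ndufab1, the mitochondrial acyl carrier protein that also sits in complex I, measured 7.06 and 7.37 against 7.56 and 8.17 (difference −0.65, limits −1.29 and −0.01). Ndufaf1, an assembly factor of the membrane arm, measured 5.12 and 5.43 against 5.54 and 6.17, below the median level in 3 of 4 arrays (difference −0.58). All 3 were without overlap, and in each DMSO replicate 2 was the highest array. The probe set of Ndufab1 is marked for possible cross hybridisation, and its other probe sets, both below the median level, differed by −0.305 and 0.05 with overlap. Ndufa1, a small X-linked accessory subunit, measured 11.03 and 11.37 against 11.35 and 11.81 and overlapped (difference −0.38).

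The bases just before the transcription start of 4 of these genes are shown because they were the complex I genes with an unadjusted p under 0.05 that the promoter table held, 2 from each side. They are 150 bases from RefSeq, build GRCm38.p6, all on the minus strand and written in the direction of transcription, at chr17:66101560-66101709 for Ndufv2, chrX:20617620-20617769 for Ndufb11, chr15:82354292-82354441 for Ndufa6 and chr7:122101849-122101998 for Ndufab1. Capitals mark motif matches in the stretches printed, and none of the 6 motifs searched (NRF1, ETS, YY1, CREB, E-box and AHR core) was found in these 4. The window of 300 bases around the start of Ndufa6 holds an AHR core match outside the stretch.
Ndufv2: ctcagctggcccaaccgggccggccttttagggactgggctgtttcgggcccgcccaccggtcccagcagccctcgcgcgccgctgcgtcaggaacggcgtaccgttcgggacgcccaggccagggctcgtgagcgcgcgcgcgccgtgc
Ndufb11: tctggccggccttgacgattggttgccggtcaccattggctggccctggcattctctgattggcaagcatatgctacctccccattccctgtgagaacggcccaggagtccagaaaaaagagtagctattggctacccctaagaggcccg
Ndufa6: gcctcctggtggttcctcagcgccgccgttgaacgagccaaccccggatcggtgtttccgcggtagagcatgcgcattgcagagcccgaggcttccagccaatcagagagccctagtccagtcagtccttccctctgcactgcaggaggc
Ndufab1: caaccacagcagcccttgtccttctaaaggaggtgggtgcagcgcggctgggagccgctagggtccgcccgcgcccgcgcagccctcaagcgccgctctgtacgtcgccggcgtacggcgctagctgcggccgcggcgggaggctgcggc

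Complex II, which links the citric acid cycle to the chain, had a catalytic pair that parted in a single array on the probe sets used. Sdha, the flavoprotein that oxidises succinate, measured 9.38 and 8.82 after TCDD and 9.40 and 9.44 after DMSO. Sdhb, the iron-sulfur subunit that takes the electrons from Sdha, measured 9.08 and 9.86 against 9.13 and 9.01. TCDD replicate 2 was thus the lowest array for Sdha and the highest for Sdhb, and for each gene the other 3 arrays lay close together. The Sdha groups did not overlap, by a margin of 0.02, and the Sdhb groups did. The differences were −0.32 for Sdha (limits −0.86 and 0.22) and 0.40 for Sdhb (limits −0.32 and 1.12). Without TCDD replicate 2 they were −0.04 and 0.01. The other probe set of Sdha, marked for possible cross hybridisation, did not show this. It measured 8.95 and 8.94 after TCDD and 9.17 and 9.03 after DMSO, without overlap (difference −0.155). The membrane anchors Sdhc and Sdhd differed by −0.14 and −0.07. Of the assembly factors, Sdhaf1 measured 6.78 and 6.73 against 6.48 and 6.64 (difference 0.195), and Sdhaf4 measured 6.74 and 7.15 against 7.17 and 7.16 (difference −0.22).

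In complex III, Uqcrfs1, the Rieske iron-sulfur protein that carries electrons to cytochrome c1, measured 8.27 and 7.99 after TCDD and 8.43 and 8.60 after DMSO. Both treated arrays were below both controls, with a difference of −0.385 (limits −0.77 and −0.005, limma adjusted p = 0.9973). Uqcrc2, a core subunit, had the opposite order, at 10.40 and 10.56 against 10.30 and 10.27 (difference 0.195, limits −0.10 and 0.49). The small accessory subunits overlapped on the probe sets used. Uqcr11 measured 7.73 and 8.60 against 8.28 and 8.51 (difference −0.23), and Uqcrq measured 6.76 and 7.53 against 7.09 and 7.05 (difference 0.075), so in both the TCDD arrays were the lowest and the highest of the 4. Uqcr10 differed by 0.18, but its further probe sets differed by 0.53 and 0.39 without overlap, and the mean of its probe sets by 0.3667. Uqcrb differed by 0.10 and the hinge protein gene Uqcrh by 0.01. The median of complex III, 0.045, was 0.2475 without TCDD replicate 1 and −0.2025 without TCDD replicate 2.

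The stretch before Uqcrfs1 is shown because it was the complex III gene with an unadjusted p under 0.05, and it holds 2 of the motifs searched. It lies at chr13:30545317-30545466 (GRCm38.p6, minus strand, RefSeq), and capitals mark an AHR core match on the opposite strand and, nearer the start, a CREB match. Here AHR core means GCGTG, the short element bound by the aryl hydrocarbon receptor with its partner, and a match is a description of letters and not a binding site.
Uqcrfs1: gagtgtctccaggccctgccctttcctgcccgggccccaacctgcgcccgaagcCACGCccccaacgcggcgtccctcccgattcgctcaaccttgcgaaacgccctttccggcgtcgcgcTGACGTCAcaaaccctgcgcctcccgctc

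Complex IV, cytochrome c oxidase, had 3 genes without overlap on the probe sets used, all higher after TCDD. Cox4i1, the widely expressed form of the subunit through which ATP regulates the enzyme, measured 11.84 and 12.05 after TCDD and 11.72 and 11.35 after DMSO. The groups did not overlap, although TCDD replicate 1 and DMSO replicate 1 were 0.12 apart, and the difference was 0.41 (limits −0.03 and 0.85). Cox6b1, on the face of the enzyme that docks cytochrome c, measured 11.41 and 11.58 against 11.39 and 11.13 (difference 0.235). The supercomplex factor Cox7a2l measured 12.64 and 12.53 against 12.44 and 12.47 (difference 0.13). Their further probe sets overlapped, with differences of 0.405 for Cox6b1 and of 0.075 and 0.005 for Cox7a2l. Cox5a, a subunit on the matrix side, went the other way at 10.04 and 9.61 against 9.91 and 10.30, with overlap (difference −0.28). Its further probe sets did not overlap, at 9.24 and 9.11 against 9.59 and 10.12 (difference −0.68) and at 8.84 and 8.76 against 8.92 and 8.95 (difference −0.135). Cox7c measured 6.71 and 5.41 after TCDD and 6.23 and 6.24 after DMSO, and TCDD replicate 2 stood far below the rest. Its probe set name marks possible cross hybridisation, and the other Cox7c probe set was below the median level with a difference of 0.02.

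Several complex IV subunits exist as isoforms restricted to certain tissues, such as the heart and muscle forms Cox6a2, Cox7a1 and Cox8b, the lung form Cox4i2 and the testis forms Cox6b2 and Cox8c. Their means over the 4 arrays were 6.45 for Cox6a2, 4.24 for Cox7a1, 6.15 for Cox8b, 6.21 for Cox4i2, 5.78 for Cox6b2 and 8.10 for Cox8c. All but Cox8c lay near or below the median level, where RMA does not separate weak expression from none. Cox8c measured 8.00 and 8.14 after TCDD and 8.12 in both DMSO arrays. The differences of the 6 isoforms lay between −0.05 and 0.12, all with overlap, and those of the 9 widely expressed subunits between −0.28 and 0.41.

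**Figure D2:**
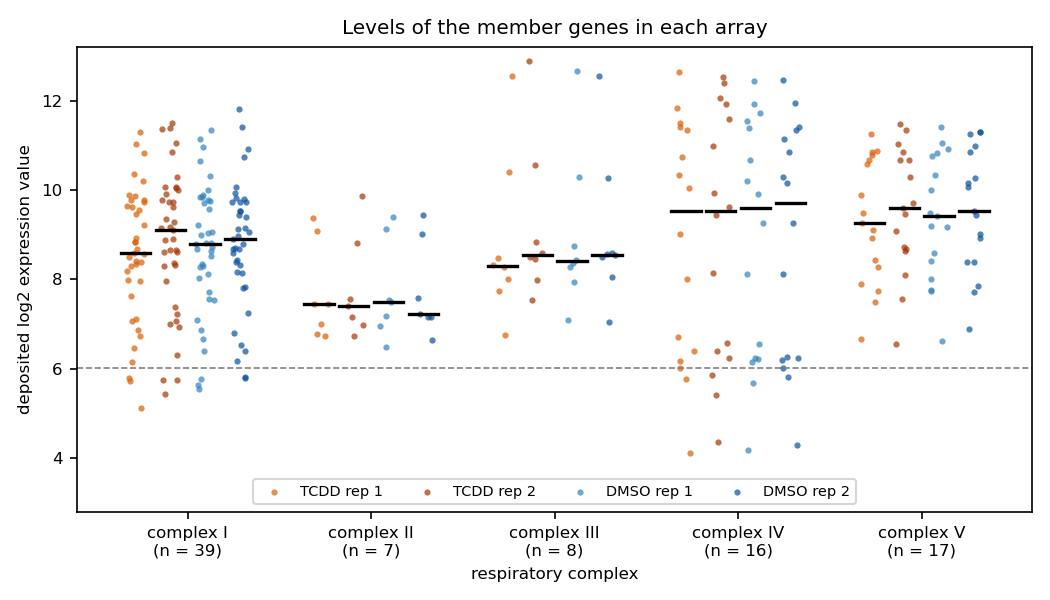
Deposited log2 expression value of every member in each array, by complex, with black bars at the median and a dashed line at 6.01, the median of all probe sets. The median bars of complex I run from 8.59 in TCDD replicate 1 to 9.11 in TCDD replicate 2, with the DMSO arrays between them at 8.79 and 8.91.

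Complex V, the ATP synthase, had a single gene with an unadjusted p under 0.05. Atp5pb, subunit b of the peripheral stalk that holds the catalytic head still, measured 10.58 and 10.66 after TCDD and 10.34 and 10.26 after DMSO. The replicates were close and the groups did not overlap, with a difference of 0.32 (limits 0.04 and 0.60, limma adjusted p = 0.9973). Its probe set name marks possible cross hybridisation, and its other probe set, at a mean of 6.60, differed by −0.08. Atp5a1, the alpha subunit of the catalytic head, measured 10.66 and 10.67 against 10.83 and 10.99, also without overlap (difference −0.245, limits −0.54 and 0.05), and its further probe set above the median level differed by −0.085. Atp5d, the delta subunit, differed by 0.035 and Atp5l, a small membrane subunit, by −0.135, both with overlap.

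Other ATP synthase genes differed more between arrays of a treatment than between treatments. Atp5e, the epsilon subunit of the central stalk, measured 7.89 and 8.63 after TCDD and 8.01 and 9.02 after DMSO. Atp5j, coupling factor 6 of the peripheral stalk, measured 9.11 and 9.71 against 9.49 and 10.07. In both genes the arrays numbered 2 were above the arrays numbered 1 in each treatment, by 0.875 for Atp5e and 0.59 for Atp5j (limma adjusted p = 0.5239 for Atp5e and adjusted p = 0.5602 for Atp5j). Their differences between treatments were −0.255 and −0.37, with overlap. Atp5e was at 0.25 without DMSO replicate 2.

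The stretches before Atp5pb and Atp5j, both genes of the peripheral stalk, are shown. Atp5pb had an unadjusted limma p under 0.05 for treatment. Atp5j was picked among the named genes with an NRF1 match, so that match was fixed by the choice. The stretch of Atp5pb lies at chr3:105959264-105959413. That of Atp5j, from the one of its 2 windows with more motifs, lies at chr16:84834977-84835126 (GRCm38.p6, minus strand). In Atp5j the capitals mark, from left to right, NRF1 (CGCATGCG), YY1 (AAGATGG) and an ETS element of the GABPA type (CCGGAAG), which bind factors known for the control of nuclear respiratory genes. The stretch of Atp5pb holds none of the motifs, while its wider window of 300 bases holds a YY1 and an E-box match.
Atp5pb: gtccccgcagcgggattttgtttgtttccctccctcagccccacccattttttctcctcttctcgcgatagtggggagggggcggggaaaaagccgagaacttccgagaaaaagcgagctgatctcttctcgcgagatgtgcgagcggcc
Atp5j: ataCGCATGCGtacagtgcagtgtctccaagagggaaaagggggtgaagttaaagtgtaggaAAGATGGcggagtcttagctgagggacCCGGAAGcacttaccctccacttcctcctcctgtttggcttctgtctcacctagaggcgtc

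Promoter windows of 300 bases, from 250 before to 50 after the start, were found for 73 of the 87 members, 78 windows in all. Both strands were searched for 6 motifs, none of which contains another. NRF1 was in 12.8% of the member windows, 1.87% of all 32851 windows and 3.08% of the windows of all genes with a single-gene probe set. The ETS element was in 25.6%, 8.86% and 14%, and YY1 in 12.8%, 6.34% and 6.56%. CREB (TGACGTCA) was in 3.85%, 1.79% and 2.52%, and the E-box (CACGTG) in 8.97%, 7.15% and 9.11%. The AHR core was in 53.8%, 32.4% and 45.3%. Among the 10 members with an NRF1 match were Atp5j, Atp5l, Uqcr11 and Cox6a1.

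Single arrays were also set against each other. Between treatments, the median over the members was −0.10 for the arrays numbered 1 and 0.11 for those numbered 2. TCDD replicate 2 was above TCDD replicate 1 for 68 of 87 members, with a median of 0.28, against 0.07 over all genes. DMSO replicate 2 was above DMSO replicate 1 for 48, with a median of 0.03, against −0.01 over all genes. TCDD replicate 1 lay below both DMSO arrays for 45 members (51.7%, against 38.2% of all genes), and TCDD replicate 2 lay above both for 51 (58.6%, against 43%). The TCDD arrays thus stood on either side of the DMSO arrays for many members.

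The median difference between the TCDD arrays was 0.31 in complex I, −0.04 in complex II, 0.355 in complex III, 0.175 in complex IV and 0.24 in complex V. Between the DMSO arrays it was 0.04, 0.04, −0.035, −0.005 and 0.12 in the same order. Cox6a1, a complex IV subunit singled out after its values were seen, measured 11.50 and 12.39 in the TCDD arrays and 11.93 and 11.95 in the DMSO arrays. Ndufs7 had the largest gap upward between the TCDD arrays, 1.05, and Cox7c the largest downward, −1.30.

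**Figure D3:**
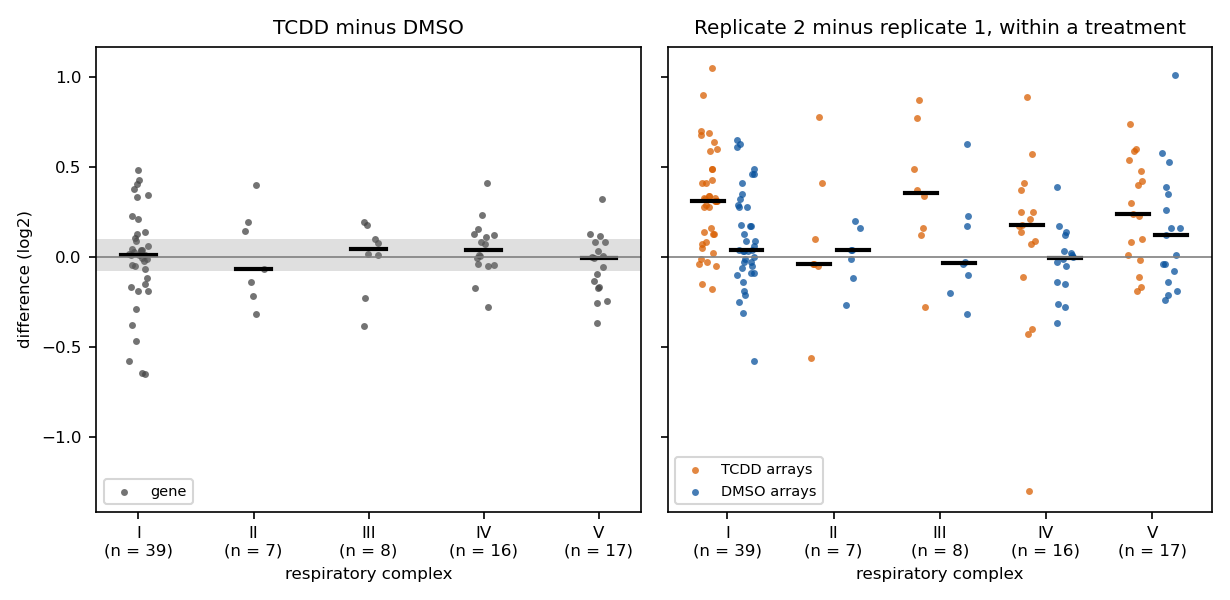
Left, TCDD minus DMSO (log2) for each member by complex, with black bars at the median and a grey band for the middle 50% of all genes. Right, replicate 2 minus replicate 1 within the TCDD arrays (orange) and the DMSO arrays (blue): the orange medians of complexes I, III, IV and V lie between 0.175 and 0.355, and that of complex II is at −0.04.

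With treatment in the fit, the arrays numbered 2 were higher than those numbered 1 by a median of 0.115 over the members and 0.035 over all genes. Both arrays numbered 2 lay above both numbered 1 for 28 members (32.2%) and below for 3 (3.45%), against 22.4% and 14% of all genes. Limma called 0 members and 0% of probe sets. Its unadjusted p was under 0.05 for 13 members (14.9%), all on the higher side. It was under 0.05 for 6.18% of all genes and 9.27% of genes above the median level. The 13 members were 8 genes of complex I, 1 of complex III and 4 of complex V. They included Uqcrh, which measured 8.01 and 8.50 after TCDD and 7.93 and 8.56 after DMSO. The median over the members was 0.28 within TCDD and 0.03 within DMSO.

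The array controls that compare the ends of a transcript also differed by array number. For Gapdh the probe set at the 3′ end exceeded that at the 5′ end by 5.35 and 5.27 in the arrays numbered 1 (TCDD and DMSO) and by 4.56 and 4.30 in those numbered 2. For beta-actin the excess was 3.61 and 3.69 against 3.34 and 3.52, and the pyruvate carboxylase and transferrin receptor controls had the same order. The part of 3′ bias in the difference between arrays was not tested. Mitochondrial ribosomal protein genes, which serve the synthesis of the mitochondrially encoded subunits, gave a median of 0.26 within TCDD (64 of 74 genes above 0) and −0.005 within DMSO, close to the 0.28 and 0.03 of the respiratory genes.

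**Figure D4:**
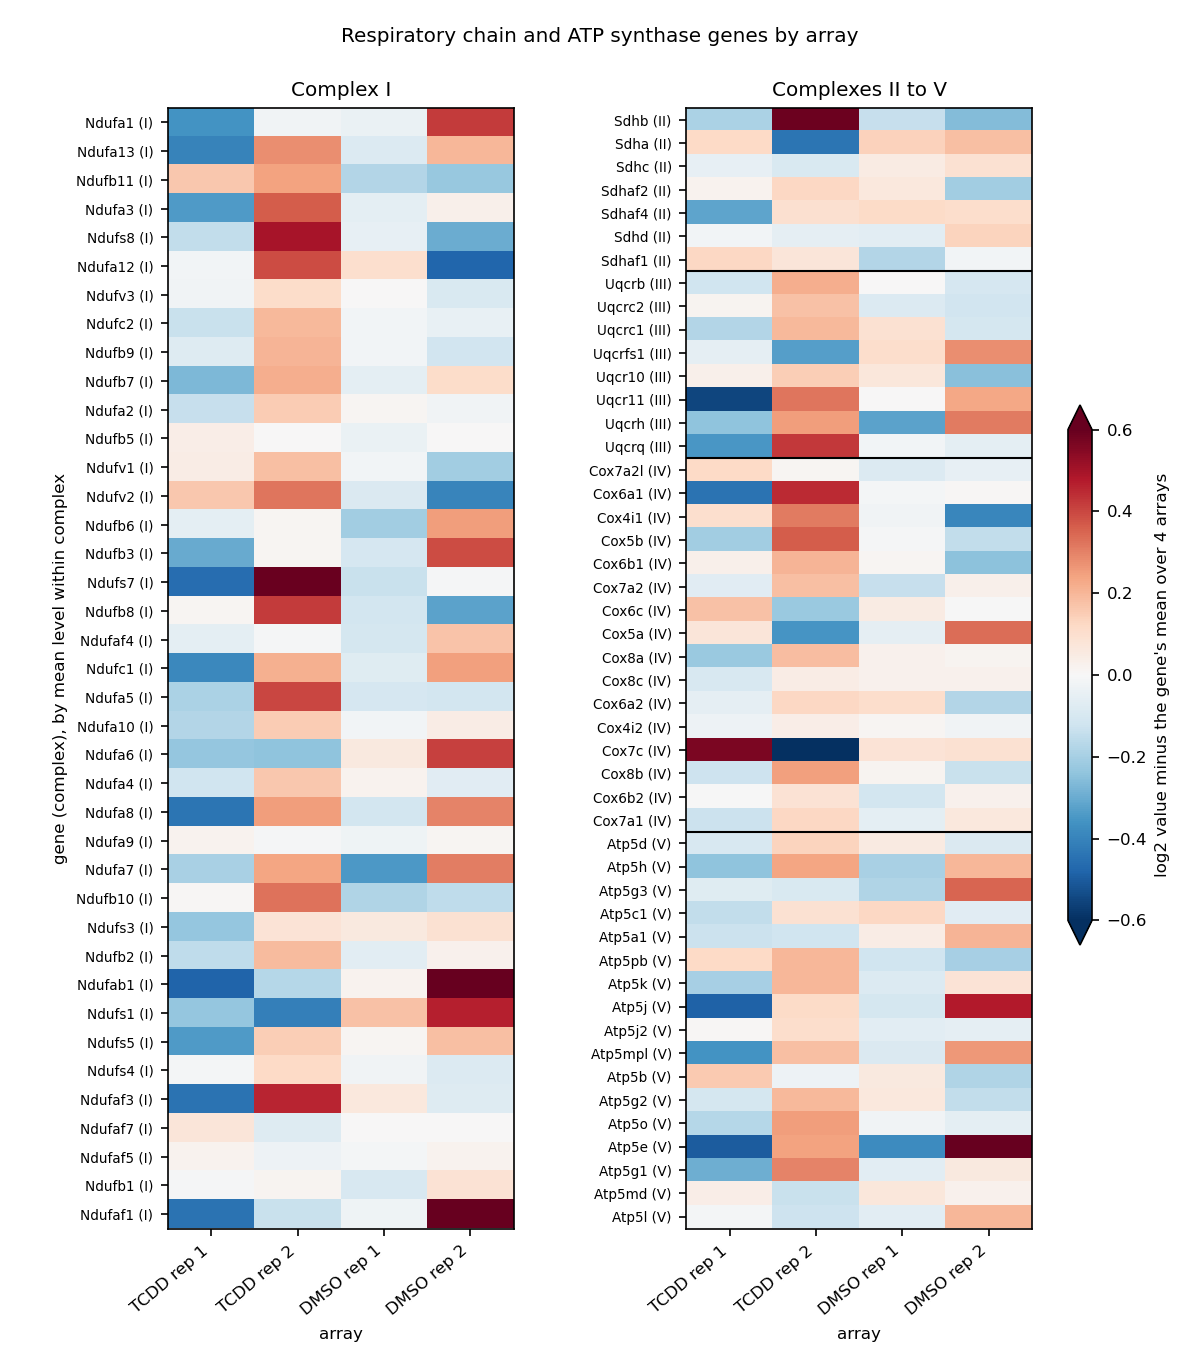
Log2 value minus the gene's own mean over the 4 arrays, for the 39 genes of complex I (left) and the 48 genes of complexes II to V (right), with each complex ordered by mean level. TCDD replicate 2 is the highest array for 49 of the 87 genes and TCDD replicate 1 the lowest for 40, and colours are capped at 0.6 on either side.

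Probe sets of the same gene did not always share a direction. Of the 87 members, 46 had more than 1 probe set, and 39 had at least 2 above the median level. Among these 39, the TCDD minus DMSO difference took both signs for 13 genes, and the median range between probe sets was 0.205. Ndufs4, a subunit of the matrix arm chosen here for its values, was the extreme, since its used probe set differed by 0.105 and another, with a mean of 6.88 in place of 6.8825, differed by −0.81. The used probe set of Ndufs4 is marked for possible cross hybridisation, and the other is not. Ndufb11 had further probe sets at 0.25 and −0.16, and the further probe sets of Ndufv2 were at 0.41 and 0.025. The other probe set of Uqcrc2 was at −0.035.

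Other genes of mitochondrial respiration were taken from 5 lists with 87 entries, of which 70 were measured and 0 were called by limma. Without overlap, 8 of them were higher after TCDD and 15 lower (11.4% and 21.4%, against 12.9% and 12% of all genes), with a median difference of −0.045. Counts for the single lists rest on few genes and are read against the same shares. The 12 citric acid cycle genes had 2 above and 5 below (16.7% and 41.7%, against 12.9% and 12%). The succinyl-CoA ligase gene Suclg1 had 8.74 and 8.94 in the treated and 9.08 and 9.25 in the control arrays (difference −0.325), while Idh3b, an isocitrate dehydrogenase subunit, measured 9.63 and 9.95 against 9.53 and 9.13 (difference 0.46). Among 13 carriers and partners, the phosphate carrier gene Slc25a3, which supplies the ATP synthase, measured 10.69 and 10.61 against 10.92 and 11.40 (difference −0.51, limits −0.998 and −0.02). Atpif1, the inhibitor of ATP synthase, measured 7.96 and 7.59 against 7.77 and 6.83 and overlapped.

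The 16 biogenesis regulators measured had 1 gene above and 3 below (6.25% and 18.8%, against 12.9% and 12% of all genes). The 23 assembly factors outside the prefixes had 3 and 4 (13.0% and 17.4%). Nrf1, the transcription factor whose motif was searched, had 8.02 and 8.04 in the treated and 7.90 and 7.94 in the control arrays (difference 0.11). Tfam, which packages mitochondrial DNA and helps to start its transcription, measured 7.13 and 6.55 against 7.04 and 7.68 and overlapped (difference −0.52). The 6 genes of ubiquinone synthesis had 1 above and 1 below (16.7% each, against the same shares). ND5, a mitochondrially encoded subunit of complex I, was the only gene of that genome looked up here. It measured 10.14 and 10.87 after TCDD and 10.69 and 10.79 after DMSO, with the TCDD arrays on either side of the controls. These genes, like those of the lists, were described after their values were known.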

How the data were processed

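The authors deposited log2 expression values, and the submitters' processing notes name RMA without a version. Per the labels' protocols, TRIzol RNA went through an Ambion message AMP amplification before labelling. That the values are log2 follows from their range, 3.09 to 14.62. Of 22690 probe sets, 22626 remained without Affymetrix controls. The platform annotation gave 20380 a single gene symbol, 691 several and 1555 none used here. The 8 probe sets that name a respiratory gene beside another were left out.

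TCDD minus DMSO was fitted across all probe sets by lmFit and eBayes of limma 3.58.1 (R 4.3.3) without covariates. P-values were adjusted by Benjamini-Hochberg across the 22626 probe sets, with calls at 0.05, and the procedure was tested on simulated data. Arrays numbered 2 minus 1 were fitted with treatment in the model. No permutation test is given, because with 2 arrays a group its smallest two-sided p is 0.3333. The number of arrays limits the precision. The background shares count 1 probe set per gene over 12393 genes.

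Members, roles and lists were chosen with earlier results of these data known. Named genes are, per complex, up to 4 with the largest difference above the median level, those with the highest and lowest mean and with the largest difference between numbers, members with an unadjusted p under 0.05 for treatment, and isoforms of restricted tissues, 36 in all. Other members (Ndufv1, Ndufb1, Ndufb3, Ndufb8, Ndufb10, Ndufs4, Ndufs8, Ndufaf5, Cox6a1, Sdhc and Sdhd) and the list genes were named after their values were seen. Alternatives were array centring, quantile normalisation, filters on low values, a variance trend with robust fit, array weights, removal of cross hybridising probe sets, gene means, a replicate block, structural subunits only, and each array left out.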

Additional observations from a re-analysis of the deposited data

How the results depend on the processing

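No probe set and no member passed limma for TCDD against DMSO as reported or under any of the 14 alternatives, which with 2 arrays a group says nothing about stability. The 494 values of the named genes under alternatives that kept them were not called either. With an array left out, the lone array is assumed to vary like the other group, and 13 of the 36 named genes changed sign. With the replicate block, 0 probe sets were called. The numbers were not treated as pairs, since the labels do not say so and there are 2 of them; deviations of same-numbered arrays correlated at 0.2338 over all probe sets. Left-out arrays moved the medians of TCDD minus DMSO, which ran from −0.105 to 0.155 in complex I, −0.16 to 0.01 in complex II, −0.2025 to 0.2475 in complex III, −0.0225 to 0.145 in complex IV and −0.155 to 0.115 in complex V. With gene means complex V was at −0.135. The medians of arrays numbered 2 minus 1 ran from 0.03 to 0.28 over the members, −0.035 to 0.355 in complex III, −0.005 to 0.175 in complex IV and 0.12 to 0.24 in complex V, where an array left out leaves the pair of the other treatment and no test. Members without overlap ran from 19 to 51 higher (26.7% and 43.0% of all genes in those settings) and from 11 to 45 lower (23.8% and 38.2%), since fewer arrays have to be separated. Without probe sets marked for cross hybridisation Atp5pb was at −0.08, Cox7c at 0.02, Ndufab1 at −0.305 and Atp5a1 at −0.085. For Ndufs4, not among the 36 named genes, the unmarked probe set of highest mean was at −0.81. With 2 arrays a group, and probe sets such as Cox7a1 below the median level, small differences were not detectable.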
